A study of Mus musculus with 36 samples.

Results

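The question was how the response of muscle stem cells, called satellite cells, between the first and the third day after injury depended on Drp1, the dynamin-related GTPase that divides mitochondria and is encoded by Dnm1l. It was asked with the genotype by time interaction, which is the KO minus control difference at 3 days post injury (3 DPI) minus the same difference at 1 DPI, or equally the step between the days in KO cells minus that in control cells. A positive interaction means a genotype difference that was more positive at 3 DPI than at 1 DPI. All 15 libraries of these 4 groups were taken, of 36 in the series. They comprised 4 KO and 3 control libraries at 3 DPI, and 4 KO and 4 control libraries at 1 DPI.

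KO cells came from Pax7-CreER;ROSA26YFP;Drp1fl/fl mice and control cells, which the labels call WT, from Pax7-CreER;ROSA26YFP mice. All mice were C57BL/6, 3 months old and given tamoxifen, and hindlimb muscles (tibialis anterior, quadriceps and gastrocnemius) had been injured with cardiotoxin. The recombinase was driven by Pax7, so deletion and the YFP label were both limited to the satellite cell lineage, and the controls carried the same recombinase and reporter without the floxed allele. Cells were sorted as YFP+ at 1 DPI and as CD34-YFP+ at 3 DPI, so day and gate differ together and cannot be told apart; both genotypes shared the gate of their day, and Cd34 is not read here. Per the labels total RNA was sequenced in bulk, and the deposited values are TPM, transcript abundances corrected for length and scaled to one common total per library. Nothing in the labels says that libraries of a group came from separate animals, so p-values measure the spread between libraries, which may be technical.

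Mitochondria divide when Drp1, recruited from the cytosol by receptors such as Mff and Fis1, constricts their outer membrane, and they fuse through mitofusins and Opa1. Satellite cells rest beneath the basal lamina of muscle fibres, leave quiescence after injury, divide as Myod1-positive myoblasts and then differentiate under Myog. Mitochondrial defects in muscle are known to engage the integrated stress response, in which phosphorylation of eIF2alpha favours translation of the transcription factor Atf4, whose targets serve amino acid synthesis, amino acid transport and tRNA charging.

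The sum of TPM was the same in every library, so the depth of sequencing is unknown. Between 12325 and 14969 genes reached 1 TPM per library. Genes above 0 numbered 14993 and 16023 in KO 3 DPI libraries 2 and 3 and at least 18132 in the other 13. The markers of satellite cells (10 genes) summed to 1441 to 1690 TPM in KO cells and 1362 to 1570 TPM in control cells at 3 DPI. At 1 DPI they summed to 1562 to 3165 TPM in KO cells and 1871 to 2741 TPM in control cells. All 20 macrophage markers were above 0 in some library of every group. They summed to 911 to 1342 TPM in KO cells and 944 to 1235 TPM in control cells at 3 DPI. At 1 DPI they summed to 836 to 12220 TPM in KO cells, highest in library 2, and 581 to 6293 TPM in control cells. Neutrophil markers (12 genes) reached at most 39.8 TPM in KO cells and 56.2 TPM in control cells at 3 DPI. At 1 DPI they reached 411 to 5092 TPM in KO cells and 341 to 4463 TPM in control cells. Elane was at 0 in every library of all 4 groups. In bulk RNA, fewer cells of a type and less RNA per cell cannot be told apart. The part of these cells in the results was not tested.

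Dnm1l was lower in KO cells on both days, and the gap was wider at 3 DPI. It stood at 29.2, 22.2, 37.5 and 24.2 TPM in KO cells, against 69.8, 61.5 and 64.9 TPM in control cells at 3 DPI. At 1 DPI it stood at 30.4, 38.5, 29 and 41 TPM in KO cells, against 52.9, 48.8, 43.9 and 49.5 TPM in control cells. Every KO library lay below every control library of its day. The KO minus control difference in log2(TPM + 1) was -1.21 ± 0.18 (SE; limma adjusted p = 0.00115) at 3 DPI and -0.49 ± 0.17 (limma adjusted p = 0.699) at 1 DPI. The interaction was -0.72 ± 0.24, with a 95% interval of -1.23 to -0.21, and it did not pass the test (limma adjusted p = 1). The value is summed over the whole gene at chr16:16312230-16358959 (GRCm38, minus strand), so transcripts that lack a deleted exon are counted in it, and the antisense gene Gm49521 overlaps it and shares 4.41% of its transcript sequence.

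No gene passed the test of the interaction. Of the 18343 genes that reached 1 TPM in 3 or more libraries, 0 had a limma adjusted p under 0.05 (0.0%), and 831 had an unadjusted p under 0.05 (4.53%), 366 of them positive (2.0%) and 465 negative (2.54%). The smallest adjusted p was 0.175. Over all genes the median interaction was -0.01, the lower and upper quartiles were -0.34 and 0.28, and the median standard error was 0.50 on the log2(TPM + 1) scale, against 0.34 for the step between days in KO cells and 0.37 in control cells. Positive values made up 48.7% of all genes and negative values 51.3%. No count model was run, because TPM are not counts; of 26 alternatives, 6 called 1 or 2 genes.

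The steps themselves were large and went mostly the same way. Between 1 and 3 DPI, 1247 genes rose (6.8%) and 2217 fell (12.1%) in KO cells, 18.9% of genes in all, and 933 rose (5.09%) and 1513 fell (8.25%) in control cells, 13.3% in all. The control count was 1526 without control 3 DPI library 2 and 1581 without library 3. The order of the counts depended on the setting: with array weights 2986 genes were called in KO cells and 3482 in control cells, and without the KO libraries numbered 2 of both days 2634 in KO cells and 3151 in control cells. These comparisons share no library. They had 1779 called genes in common, which is 51.4% of those called in KO cells and 72.7% of those called in control cells, and 1776 of the shared genes moved the same way. Across all genes the steps had a Pearson r of 0.711, and across the 11191 genes whose mean reached 5 TPM in some group 0.759, given as a description since genes are not independent replicates and all libraries were scaled as one table. The 3 shared genes of opposite sign, named after their values were seen, were Gdap1l1, the scaRNA Gm23751 and the pseudogene Gm47597. Gm23751 was at 0 in all 4 KO libraries and at 99.6, 37.4 and 0 TPM in control cells at 3 DPI, and at 90.1, 17.9, 84 and 70.6 TPM in KO cells and 0 in all 4 control libraries at 1 DPI. Between genotypes, 29 genes rose (0.158%) and 23 fell (0.125%) in KO cells at 3 DPI, 0.283% in all, and 23 rose (0.125%) and 28 fell (0.153%) at 1 DPI, 0.278% in all; 0 of either set was called for the interaction. Of these, 16 at 3 DPI and 12 at 1 DPI were protein-coding, and with values rescaled over protein-coding genes, and those genes alone tested, 12 were called at 3 DPI and 4 at 1 DPI.

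**Figure D1:**
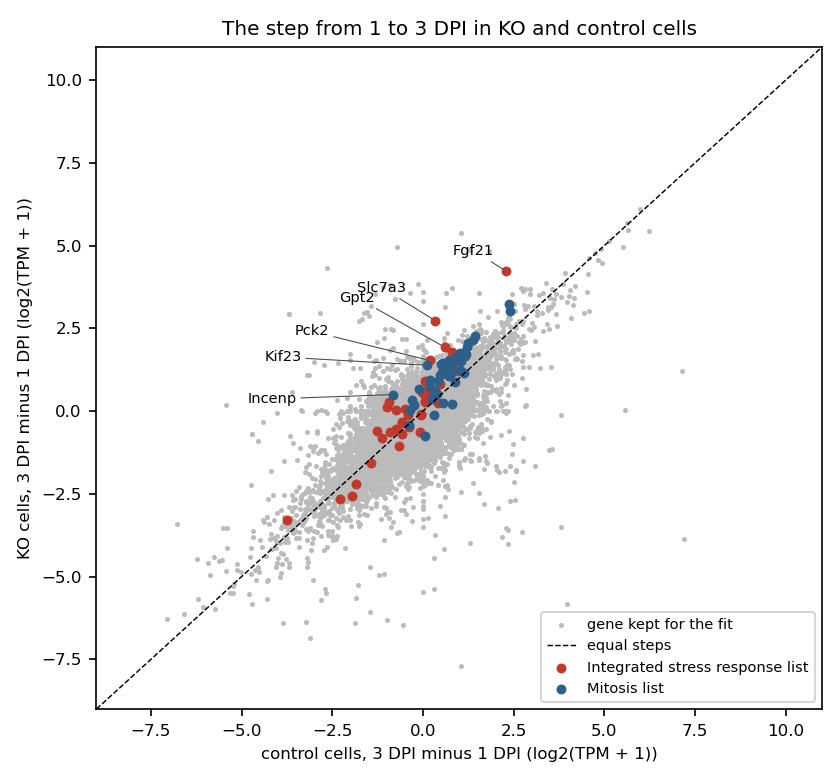
Each point is one of the 18343 genes, with its step between 1 and 3 DPI in control cells on the x axis and in KO cells on the y axis, both in log2(TPM + 1); the dashed line marks equal steps and the vertical distance from it is the interaction. Most integrated stress response (red) and mitosis (blue) genes lie above the line, with Fgf21 at a step of 4.23 in KO cells and 2.30 in control cells.

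Integrated stress response genes had mostly positive interactions, with a larger median genotype difference at 3 DPI than at 1 DPI. Of 40 list members, all of which passed the filter, 29 had a positive interaction, against 48.7% of all genes. The median was 0.33, against -0.01 over all genes. Of the 40, 9 had an unadjusted p under 0.05 with a positive sign (2.0% of all genes) and 0 with a negative one. None was called. Their KO minus control median was 0.33 at 3 DPI, with 33 of 40 above 0 (49.1% of all genes), and 0.11 at 1 DPI, with 24 of 40 above 0 (50.1% of all genes), against medians of 0.00 over all genes on each day. At 3 DPI 13 had an unadjusted p under 0.05 with KO higher (2.68% of all genes) and 0 with KO lower (2.75%), and at 1 DPI 0 had one in either direction (2.87% higher and 2.38% lower). Fgf21 and Slc7a3 were called higher in KO cells at 3 DPI, and 0 members were called at 1 DPI. All KO libraries lay above all control libraries for 15 members at 3 DPI (2.98% of all genes) and for 1 at 1 DPI (1.31%), and below them for 1 at 3 DPI (3.25%) and 0 at 1 DPI (1.19%). The mean log2(TPM + 1) of the list was 4.41, 4.40, 4.41 and 4.55 in KO cells, against 3.92, 3.95 and 3.97 in control cells at 3 DPI. At 1 DPI it was 4.42, 4.33, 4.48 and 4.34 in KO cells, against 4.47, 4.30, 4.23 and 4.26 in control cells. The genotypes did not overlap at 3 DPI and overlapped at 1 DPI, and the control libraries of 3 DPI lay below the other 12. Between the days 8 members rose (6.8% of all genes) and 8 fell (12.1%) in KO cells, while 3 rose (5.09%) and 10 fell (8.25%) in control cells. Of these, 3 of the rises and 7 of the falls were shared. The median interaction stayed between 0.23 and 0.42 in all 26 alternatives.

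Fgf21, a secreted hormone and known Atf4 target, carried the largest genotype difference of the group after Slc7a3. It stood at 25.5, 38.4, 26 and 24.1 TPM in KO cells, against 4.76, 4.6 and 8.45 TPM in control cells at 3 DPI. At 1 DPI it stood at 0.787, 0, 0.705 and 0.885 TPM in KO cells, against 0, 0, 1.25 and 0.561 TPM in control cells. All KO libraries lay above all control libraries at 3 DPI, and the genotypes overlapped near 0 at 1 DPI. Fgf21 rose between the days in both genotypes, by 4.23 ± 0.34 in KO cells and by 2.30 ± 0.37 in control cells (SE, log2(TPM + 1)), with limma adjusted p of 1.13e-07 in KO cells and 0.000261 in control cells. The interaction was 1.93 ± 0.50, with a 95% interval of 0.88 to 2.98 and a limma adjusted p of 0.751. With a pseudocount of 5 it was 1.57 and was called (limma adjusted p = 0.0204), the only gene called under that setting; over all alternatives its adjusted p ran between 0.0204 and 1. The difference at 3 DPI was 2.11 ± 0.37 (limma adjusted p = 0.00788, and 0.0351 when rescaled over protein-coding genes).

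Slc7a3, a transporter of arginine and lysine, was detected in every KO library of 3 DPI and was low elsewhere. It stood at 14.1, 22, 18.8 and 16.7 TPM in KO cells, against 0.270, 2.18 and 2.91 TPM in control cells at 3 DPI. At 1 DPI its values were 3.83, 0.0688, 2.97 and 2.05 TPM in KO cells, against 3.58, 0, 0.0563 and 2.17 TPM in control cells. It rose in KO cells between the days by 2.73 ± 0.55 (limma adjusted p = 0.00162), and the difference between days in control cells was 0.34 ± 0.59. Its interaction of 2.39 ± 0.81 (95% interval 0.70 to 4.08) did not pass the test (limma adjusted p = 1). Its KO minus control difference at 3 DPI was 2.90 ± 0.59 (limma adjusted p = 0.0352) and was not called when rescaled over protein-coding genes (limma adjusted p = 0.0747).

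Pck2 and Gpt2, mitochondrial enzymes of the list, were also higher in KO cells at 3 DPI without overlap. Neither difference was called (limma adjusted p of 0.184 for Pck2 and 0.112 for Gpt2). Pck2, the mitochondrial phosphoenolpyruvate carboxykinase, stood at 28.7, 27.8, 26.6 and 39.9 TPM in KO cells, against 13.1, 9.55 and 11.8 TPM in control cells at 3 DPI. Its values at 1 DPI were 8.64, 8.03, 12 and 11.2 TPM in KO cells, against 18.5, 13.2, 4.5 and 8.35 TPM in control cells. Its interaction was 1.35 ± 0.46 (limma adjusted p = 1). Gpt2, the mitochondrial alanine aminotransferase, averaged 24.4 ± 6.45 TPM in KO cells and 7.78 ± 2.17 TPM in control cells at 3 DPI (SD). At 1 DPI the means were 5.55 ± 0.58 TPM in KO cells and 5 ± 2.44 TPM in control cells. For Pck2 and Gpt2 all KO libraries lay above all control libraries at 3 DPI, as for 2.98% of all genes, and the genotypes overlapped at 1 DPI. Both rose between the days in KO cells, Pck2 by 1.53 ± 0.31 (limma adjusted p = 0.00191) and Gpt2 by 1.93 ± 0.33 (limma adjusted p = 0.000397). In control cells the same steps were 0.18 ± 0.34 for Pck2 and 0.61 ± 0.36 for Gpt2 and did not pass the test. The interaction of Gpt2 was 1.32 ± 0.49 and, like that of Pck2, was not called. A step that passed beside one that did not does not show that the steps differ. Smaller interactions were those of the mitochondrial enzymes Mthfd2 (0.21 ± 0.25) and Shmt2 (0.25 ± 0.27) of folate metabolism and Pycr1 of proline synthesis (0.55 ± 0.57).

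Among genes of amino acid and tRNA handling, Asns, the asparagine synthetase, averaged 220 ± 11 TPM in KO cells and 121 ± 3.21 TPM in control cells at 3 DPI (SD). The 1 DPI means were 65.3 ± 17.6 TPM in KO cells and 72.1 ± 19.3 TPM in control cells. Nupr1, a stress-induced nuclear protein, and Xpot, which exports tRNA from the nucleus, had another shape of step: both fell between the days in control cells, Nupr1 by 1.27 ± 0.20 (limma adjusted p = 0.000275) and Xpot by 0.74 ± 0.22 (limma adjusted p = 0.0284), while KO values stayed closer to those of 1 DPI. In KO cells the step was -0.61 ± 0.19 for Nupr1 (limma adjusted p = 0.0282) and 0.02 ± 0.20 for Xpot (limma adjusted p = 0.955). The interaction was 0.99 ± 0.42 for Asns, 0.65 ± 0.28 for Nupr1 and 0.76 ± 0.30 for Xpot, none of them called. None of the bZIP transcription factors of the list had an unadjusted interaction p under 0.05. Atf4 averaged 175 ± 6.66 TPM in KO cells and 146 ± 4.60 TPM in control cells at 3 DPI (SD). Its means at 1 DPI were 228 ± 36.6 TPM in KO cells and 219 ± 35.9 TPM in control cells, with an interaction of 0.20 ± 0.18, and Ddit3, which encodes CHOP, had one of -0.13 ± 0.49. The others were 0.27 ± 0.40 for Atf5, 0.29 ± 0.24 for Cebpg, -0.34 ± 0.49 for Atf3, -0.54 ± 0.56 for Jdp2 and -0.61 ± 0.48 for Cebpb. Atf5 fell between the days in control cells by 0.90 (limma adjusted p = 0.0461), and its step in KO cells was -0.63 (limma adjusted p = 0.109).

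**Figure D2:**
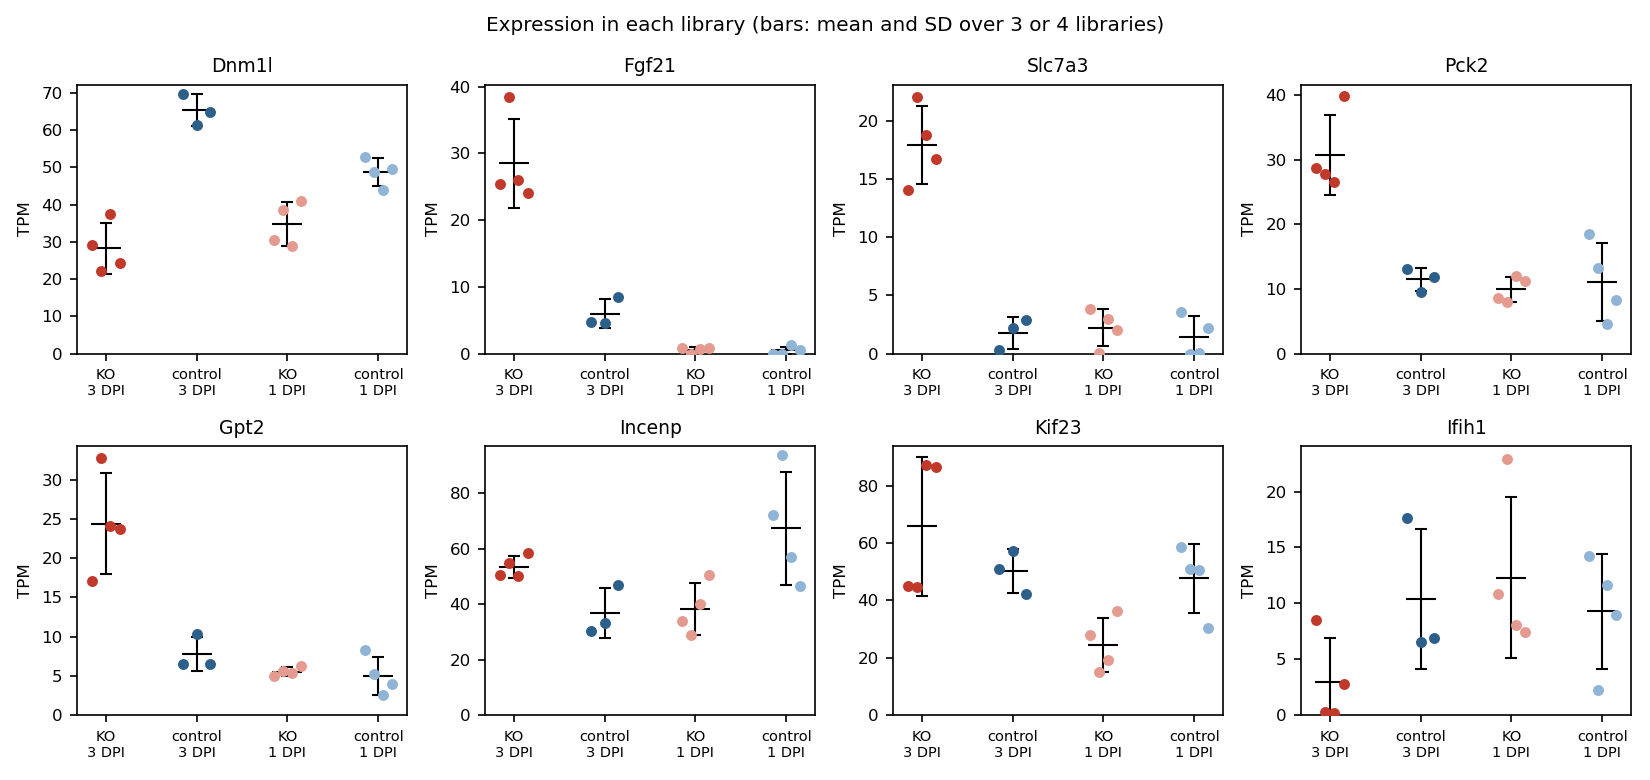
TPM of 8 genes in each library of the 4 groups, KO 3 DPI, control 3 DPI, KO 1 DPI and control 1 DPI along the x axis, with the mean and SD over 3 or 4 libraries. Fgf21, Slc7a3, Pck2 and Gpt2 are high in the KO 3 DPI libraries alone among the plotted groups, Dnm1l is low in both KO groups, and Ifih1 has spreads that overlap on both days.

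The promoters of stress genes were read for TGATGNAA, the letters of the composite site that Atf4 binds with C/EBP partners, on both strands of the 300 bases running from 250 before to 50 after the RefSeq start (GRCm38.p6). It was present in 13 of the 36 members with a promoter in the table (36.1%), against 4.51% of all 27025 genes. The list was drawn up from known genes of the response and was counted whole. This share therefore describes the list and says nothing about the interaction. Fgf21, Pck2, Asns and Nupr1 were among them, and Slc7a3, Gpt2 and Xpot were not. The windows of Fgf21, Pck2 and Asns are shown as examples of genes that hold the letters and had an unadjusted interaction p under 0.05. Nupr1 also holds the letters and is not shown. Slc7a3 and Gpt2, with larger interactions than Asns, lack the letters. Capitals mark TGATGNAA, read on either strand, which begins 139 bases before the start in Fgf21, 103 before in Pck2 and 23 before in Asns. Sequences run 5′ to 3′ on the strand of the gene, which is minus for Fgf21 (chr7:45615441-45615740), plus for Pck2 (chr14:55540016-55540315) and minus for Asns (chr6:7693160-7693459). A match is a description of letters, not a binding site.
Fgf21: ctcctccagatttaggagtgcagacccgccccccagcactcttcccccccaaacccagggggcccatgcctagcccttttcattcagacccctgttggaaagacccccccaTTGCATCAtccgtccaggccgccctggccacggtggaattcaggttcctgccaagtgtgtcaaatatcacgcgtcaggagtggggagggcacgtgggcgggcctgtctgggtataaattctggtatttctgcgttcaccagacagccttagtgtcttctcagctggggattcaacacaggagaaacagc
Pck2: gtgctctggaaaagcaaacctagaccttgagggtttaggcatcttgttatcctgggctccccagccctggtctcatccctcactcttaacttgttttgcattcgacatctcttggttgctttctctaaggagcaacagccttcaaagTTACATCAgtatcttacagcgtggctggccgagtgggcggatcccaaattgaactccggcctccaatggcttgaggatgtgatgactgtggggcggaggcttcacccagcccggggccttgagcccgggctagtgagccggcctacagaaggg
Asns: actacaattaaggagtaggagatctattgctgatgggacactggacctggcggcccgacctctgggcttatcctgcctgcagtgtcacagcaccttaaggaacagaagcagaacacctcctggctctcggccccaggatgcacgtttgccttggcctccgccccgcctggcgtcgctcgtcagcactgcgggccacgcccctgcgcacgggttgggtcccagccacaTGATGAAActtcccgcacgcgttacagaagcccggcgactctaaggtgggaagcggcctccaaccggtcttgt

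Mitosis genes also had mostly positive interactions, and here the median genotype difference was larger at 1 DPI. Of 44 mitosis genes, all kept, 38 had a positive interaction (48.7% of all genes). The median was 0.59, the farthest from all genes of the 35 pathway lists. Of these 44 genes, 2 had an unadjusted p under 0.05 with a positive sign (2.0% of all genes) and 1 with a negative sign (2.54%). None was called. The KO minus control median was 0.00 at 3 DPI, with 22 of 44 above 0, and -0.57 at 1 DPI, with 42 of 44 below 0 (49.1% of all genes), 8 of them with an unadjusted p under 0.05 (2.38% of all genes) and 0 called. The mean log2(TPM + 1) of the list was 5.89, 5.71, 6.04 and 6.12 in KO cells, against 6.11, 5.98 and 5.89 in control cells at 3 DPI. At 1 DPI it was 5.07, 4.41, 4.61 and 5.18 in KO cells, against 5.45, 5.85, 5.09 and 5.01 in control cells. The genotypes overlapped on both days, and every library of 3 DPI exceeded every KO library of 1 DPI. Between the days 26 members rose (6.8% of all genes) and 0 fell in KO cells, with a median step of 1.16, while 7 rose (5.09%) and 1 fell (8.25%) in control cells, with a median step of 0.65. The 7 were all among the 26. The KO 1 DPI library lowest in this list, library 2, was also the one highest in macrophage markers. Without that library and KO 3 DPI library 2 the median interaction was 0.43, and it lay between 0.38 and 0.71 in all 26 alternatives. The lowest, 0.38, came without control 1 DPI library 2, the control library of that day highest in this list (5.85). The part of these libraries was not tested.

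Incenp, the scaffold of the chromosomal passenger complex that activates Aurora B, had the smallest unadjusted p of the list. It stood at 50.7, 54.9, 50.2 and 58.6 TPM in KO cells, against 30.2, 33.4 and 47.1 TPM in control cells at 3 DPI. At 1 DPI it stood at 33.9, 29, 39.9 and 50.5 TPM in KO cells, against 72.1, 93.8, 57.1 and 46.7 TPM in control cells. All KO libraries lay above all control libraries at 3 DPI, and at 1 DPI the KO values were mostly lower, with an overlap between KO library 4 and control library 4. Incenp fell in control cells between the days by 0.83 ± 0.25 (limma adjusted p = 0.0321), the only member to do so; its step in KO cells was 0.50 ± 0.23 (limma adjusted p = 0.141). Its interaction was 1.33 ± 0.34 (95% interval 0.62 to 2.04; limma adjusted p = 0.751).

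Kif23, the kinesin that bundles the central spindle in cytokinesis, stood at 44.8, 44.8, 87.1 and 86.5 TPM in KO cells, against 51, 57.3 and 42.4 TPM in control cells at 3 DPI. The 1 DPI values were 27.9, 15, 19.2 and 36.2 TPM in KO cells, against 58.5, 51, 50.5 and 30.5 TPM in control cells. The genotypes overlapped on both days. It rose between the days in KO cells by 1.39 ± 0.30 (limma adjusted p = 0.00315), its step in control cells was 0.10 ± 0.33, and the interaction was 1.28 ± 0.45 (limma adjusted p = 1). Cenpe, a kinetochore motor, had an interaction of 0.77 ± 0.42. Members with the largest steps moved in both genotypes: Ccnb2, a cyclin of the G2/M transition, rose by 3.25 ± 0.45 in KO cells and by 2.38 ± 0.49 in control cells, and Cenpa, the centromeric histone, by 3.02 ± 0.31 in KO cells and by 2.39 ± 0.33 in control cells, all past the test (limma adjusted p of 0.00239 or less). Pttg1, or securin, which holds separase inactive until anaphase, went the other way, with an interaction of -0.43 ± 0.20 and all KO libraries above all control libraries at 1 DPI (1.31% of all genes). Mki67, the proliferation antigen, had an interaction of 0.42 ± 0.65.

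In promoters of the list TTTGAA, the letters of the cell cycle homology region (CHR), was present in 28 of 38 members with a promoter (73.7%), against 20.2% of all genes. CCAAT, the letters bound by NF-Y, was present in 29 of 38 (76.3%), against 41.1%. Stress genes held TTTGAA in 5 of 36 and CCAAT in 22 of 36, and TGATGNAA was present in 1 of 38 mitosis promoters. Both strands were read, and none of the 3 motifs contains another. These shares too were counted over whole lists of known genes and say nothing about the interaction. Kif23 is shown because it holds the CHR and CCAAT letters within a few bases of each other at its start (chr9:61946750-61947049, minus strand, 5′ to 3′ on that strand); capitals mark ATTGG, the reverse complement of CCAAT, and TTTGAA.
Kif23: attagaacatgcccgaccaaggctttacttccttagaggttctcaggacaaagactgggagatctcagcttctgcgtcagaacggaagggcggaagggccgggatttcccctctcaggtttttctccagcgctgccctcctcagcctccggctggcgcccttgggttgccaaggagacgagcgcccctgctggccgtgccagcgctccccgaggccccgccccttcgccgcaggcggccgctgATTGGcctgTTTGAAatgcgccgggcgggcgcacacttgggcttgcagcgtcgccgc

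Other lists of the cell cycle had smaller values. S phase and DNA replication genes had 37 of 43 positive interactions and a median of 0.21, which was -0.02 without KO 1 DPI library 2. Rfc5, a subunit of the clamp loader, averaged 88.6 ± 8.31 TPM in KO cells and 70.6 ± 5.41 TPM in control cells at 3 DPI (SD). At 1 DPI the means were 72.7 ± 22.8 TPM in KO cells and 94.7 ± 14.2 TPM in control cells, with an interaction of 0.74 ± 0.31 (limma adjusted p = 1). Since 33.6% of its transcript is shared with other genes, its level is uncertain. Of the 43, 4 rose and 2 fell between the days in KO cells (6.8% and 12.1% of all genes). In control cells 1 rose and 5 fell (5.09% and 8.25%). These counts are small and were not tested against those shares. G1 cyclins and cell cycle inhibitors had a median of 0.23, with 14 of 18 positive, which was 0.10 without KO 1 DPI library 2. Cdkn1a, the p21 inhibitor, averaged 610 ± 28.6 TPM in KO cells and 635 ± 80.4 TPM in control cells at 3 DPI (SD). The 1 DPI means were 280 ± 118 TPM in KO cells and 245 ± 39.5 TPM in control cells; it rose between the days in KO cells by 1.21 ± 0.20 (limma adjusted p = 0.00023) and in control cells by 1.37 ± 0.21 (limma adjusted p = 0.00019), and its interaction was -0.16 ± 0.29.

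**Figure D3:**
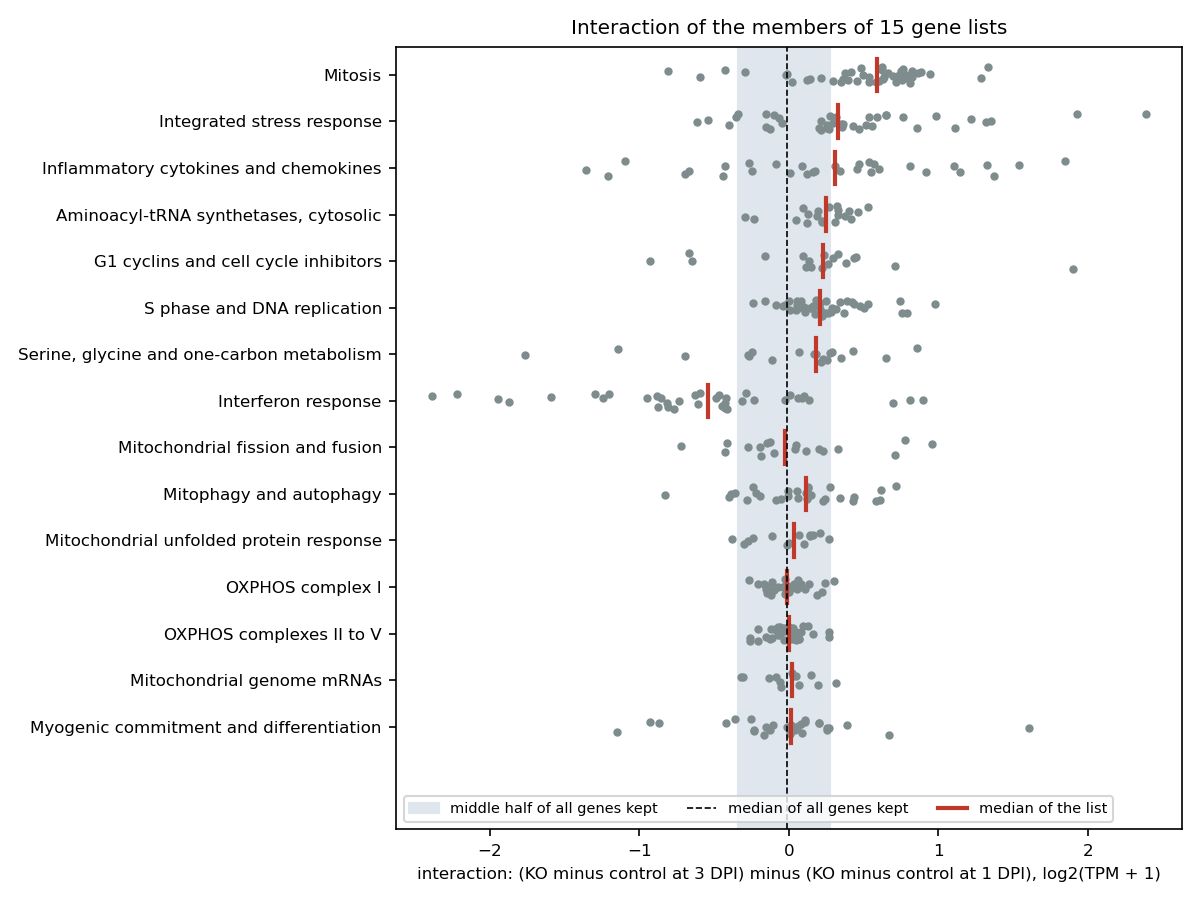
Interaction of each kept member of 15 gene lists on the x axis in log2(TPM + 1), with the median of each list in red and the range between the quartiles of all genes shaded, from -0.34 to 0.28. The medians of the mitosis list (0.59), the integrated stress response list (0.33), the inflammatory cytokine list (0.31) and the interferon list (-0.54) lie outside the shading, and those of mitochondrial lists lie close to 0.

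Interferon response genes leaned the other way, though the lean rested on a few libraries. Of 38 kept members of 39, 8 had a positive interaction and 30 a negative one, the median was -0.54, and 6 had an unadjusted p under 0.05 with a negative sign (2.54% of all genes); none was called. The KO minus control median was -0.29 at 3 DPI and 0.24 at 1 DPI. The mean log2(TPM + 1) of the list was 3.08, 2.96, 2.61 and 2.97 in KO cells, against 4.01, 2.72 and 3.08 in control cells at 3 DPI, and 3.08, 4.73, 3.15 and 3.29 in KO cells, against 3.59, 2.98, 3.55 and 3.10 in control cells at 1 DPI. The highest libraries were control library 1 at 3 DPI and KO library 2 at 1 DPI, the library with the most macrophage marker RNA. Markers of dendritic cells and MHC class II (6 of 11 kept) had 0 of 6 positive interactions and a median of -0.88. That median was -0.06 without KO 1 DPI library 2 and -1.37 without KO 1 DPI library 3. All 11 markers together summed to 71.5 to 202.5 TPM in KO cells and 89.8 to 103.6 TPM in control cells at 3 DPI. At 1 DPI they summed to 237 to 3981 TPM in KO cells, highest in library 2, and 130 to 614.5 TPM in control cells. Their part was not tested. Without control 3 DPI library 1 the median of the interferon list was -0.12. It was -0.96 without control 3 DPI library 2 and -0.32 without the KO libraries numbered 2 of both days. Between the days 9 members of the interferon list fell (12.1% of all genes) and 0 rose in KO cells. In control cells 1 fell (8.25%) and 1 rose (5.09%).

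Ifih1, the cytosolic sensor of double-stranded RNA, stood at 8.54, 0.289, 0.161 and 2.79 TPM in KO cells, against 17.6, 6.58 and 6.92 TPM in control cells at 3 DPI. At 1 DPI its values were 10.8, 22.9, 8.07 and 7.47 TPM in KO cells, against 14.2, 2.22, 11.7 and 8.99 TPM in control cells. The genotypes overlapped on both days, and the interaction was -2.39 ± 0.85 (limma adjusted p = 1). Irf9, part of the transcription factor that interferon activates, fell between the days in KO cells by 1.43 ± 0.30 (limma adjusted p = 0.0023) and had a step of -0.19 ± 0.33 in control cells. Its interaction was -1.24 ± 0.44. Mx1, an antiviral GTPase, was at 0 in 3 of 4 KO libraries of 3 DPI and at most 3.54 TPM in any library, with an interaction of -1.95 ± 0.52 (limma adjusted p = 0.751). Ifit3b shares 84.8% of its transcript with Ifit3, and its interaction of -2.22 ± 0.76 is uncertain for that reason.

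**Figure D4:**
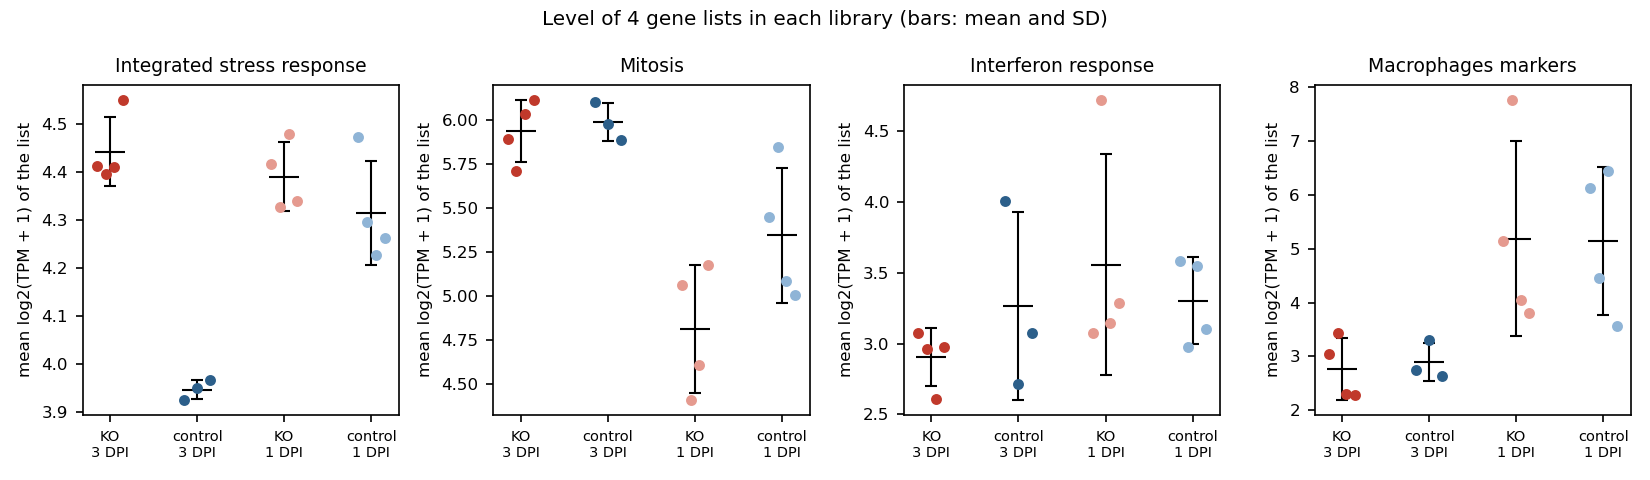
Mean log2(TPM + 1) over the kept members of 4 lists in each library, KO left of control at 3 DPI and then at 1 DPI, with the mean and SD of each group. Control libraries of 3 DPI are lowest for the integrated stress response (3.92 to 3.97), KO libraries of 1 DPI reach down to 4.41 for mitosis, and a single KO 1 DPI library is highest for interferon genes (4.73) and for macrophage markers (7.77).

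The remaining lists far from the median of all genes were small in effect or rested on a library. Cytosolic aminoacyl-tRNA synthetases, which charge tRNAs and many of which are Atf4 targets, had 18 of 20 positive interactions and a median of 0.25, between 0.15 and 0.40 over the alternatives; all 20 had a KO minus control difference above 0 at 3 DPI, against 49.1% of all genes, and 6 of 20 at 1 DPI. Tars, the threonyl-tRNA synthetase, averaged 161 ± 32.9 TPM in KO cells and 114 ± 17.9 TPM in control cells at 3 DPI (SD). Its means at 1 DPI were 135 ± 21.8 TPM in KO cells and 139 ± 16.6 TPM in control cells, with an interaction of 0.53 ± 0.24. Serine, glycine and one-carbon genes had 12 of 19 positive interactions, a median of 0.18 and a mixed content. Psat1, a serine synthesis enzyme that is also a stress response gene, rose between the days in both genotypes, by 1.32 in KO cells (limma adjusted p = 0.000126) and by 0.67 in control cells (limma adjusted p = 0.0476), with an interaction of 0.65 ± 0.30, whereas Mthfd2l, a mitochondrial enzyme of folate metabolism, had a negative one of -1.14 ± 0.46. The median of this list was 0.01 without KO 1 DPI library 2.

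Inflammatory cytokines and chemokines had a median of 0.31, with 21 of 31 positive, but it was -0.05 without KO 1 DPI library 3. Of the 31, 22 fell between the days in each genotype (12.1% of all genes in KO cells and 8.25% in control cells). Of these, 21 were shared. Ccl11, the eosinophil chemokine eotaxin, stood at 4.76, 10.7, 3.65 and 1.14 TPM in KO cells, against 1.61, 0 and 1.24 TPM in control cells at 3 DPI. Its values at 1 DPI were 54.2, 58.6, 67.3 and 54.2 TPM in KO cells, against 85.3, 55.8, 99.5 and 64.4 TPM in control cells. It fell in both genotypes, by 3.54 in KO cells (limma adjusted p = 8.52e-06) and by 5.39 in control cells (limma adjusted p = 2.49e-07), and its interaction was 1.84 ± 0.62 (limma adjusted p = 1). Macrophage markers had a median interaction of -0.03 that ran between -0.47 and 0.78 over the alternatives.

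Mitochondrial gene groups had median interactions near 0. Of 36 complex I genes, 30 rose in KO cells (6.8% of all genes) and 26 in control cells (5.09%) between the days. Of these, 25 were shared, and the median interaction was -0.02. Of 39 genes of complexes II to V, 38 rose in each genotype (6.8% of all genes in KO cells and 5.09% in control cells). They were the same 38, and the median interaction was 0.00. Both lists lay slightly lower in KO cells on both days. For complex I the medians were -0.12 at 3 DPI and -0.11 at 1 DPI. For complexes II to V they were -0.13 at 3 DPI and -0.12 at 1 DPI. At 3 DPI 33 of 36 and 38 of 39 members, in that order, were below 0 (50.8% of all genes). At 1 DPI 33 of 36 and 36 of 39 were (49.1%). All KO libraries lay below all control libraries for 10 and 14 members at 3 DPI (3.25%). At 1 DPI this held for 0 and 1 (1.19%). The list levels of the genotypes did not overlap at 3 DPI and overlapped at 1 DPI. The median interaction was 0.02 for mRNAs of the mitochondrial genome, -0.02 for the TCA cycle, 0.03 for the mitochondrial unfolded protein response, 0.11 for mitophagy and autophagy and -0.03 for fission and fusion genes. Dnm1l alone of 18 kept fission and fusion genes had an unadjusted interaction p under 0.05 (4.53% of all genes). Opa1, the inner membrane fusion GTPase, had an interaction of 0.20 ± 0.31, Mfn2, an outer membrane mitofusin, of 0.33 ± 0.54, and the Drp1 receptors Fis1 and Mff of -0.15 ± 0.19 for Fis1 and -0.19 ± 0.23 for Mff.

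The myogenic programme also had median interactions near those of all genes. Of 30 genes of commitment and differentiation, 17 rose in KO cells (6.8% of all genes) and 16 in control cells (5.09%). All 16 were shared, and the median interaction was 0.01. Myog, which drives terminal differentiation, averaged 782 ± 103 TPM in KO cells and 846 ± 126 TPM in control cells at 3 DPI (SD). At 1 DPI the means were 18.1 ± 9.32 TPM in KO cells and 17.9 ± 11 TPM in control cells, an interaction of -0.16 with a 95% interval of -1.76 to 1.45. Pax7, the satellite cell transcription factor, averaged 6.03 ± 2.68 TPM in KO cells and 6.24 ± 0.817 TPM in control cells at 3 DPI (SD). The 1 DPI means were 15.4 ± 3.93 TPM in KO cells and 14.3 ± 4.59 TPM in control cells, with an interaction of -0.26 ± 0.46. Myod1, the determination factor, had one of -0.11 ± 0.32. The interaction median was -0.15 for sarcomere genes, with 23 of 30 negative, and -0.16 for genes of satellite cell quiescence, with 18 of 28 negative. Of the commitment and sarcomere lists, 1 of 30 members each had an unadjusted interaction p under 0.05, with a negative sign. This is near the share of all genes (2.54%). Tnnc1, the slow and cardiac troponin C, rose in both genotypes, by 2.97 in KO cells (limma adjusted p = 4.5e-05) and by 4.44 in control cells (limma adjusted p = 1.31e-06), an interaction of -1.48 ± 0.61, and was named after its values were seen. Ckb, the brain-type creatine kinase, rose by 1.14 ± 0.24 in KO cells (limma adjusted p = 0.00247) and by 2.29 ± 0.26 in control cells (limma adjusted p = 6.12e-06), an interaction of -1.15 ± 0.35; 30.5% of its transcript is shared with a pseudogene.

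Single genes with the smallest unadjusted p of the interaction were taken from protein-coding genes whose mean reached 5 TPM in some group, 8 in each direction, none of them called. St7l stood at 19.4, 23.7, 25.5 and 10.3 TPM in KO cells, against 9.61, 4.51 and 5.23 TPM in control cells at 3 DPI. Its 1 DPI values were 17.5, 13.5, 10.3 and 20.1 TPM in KO cells, against 20.4, 18.6, 24.5 and 17.9 TPM in control cells. All KO libraries lay above all control libraries at 3 DPI and the genotypes overlapped at 1 DPI. It fell by 1.57 ± 0.29 in control cells between the days (limma adjusted p = 0.000937), its step in KO cells was 0.31 ± 0.27, and its interaction was 1.88 ± 0.39 (limma adjusted p = 0.555). Fam204a also fell in control cells, by 0.60 ± 0.14 (limma adjusted p = 0.00656), and its interaction was 0.90 ± 0.19. It stood at 64.8 to 93.9 TPM in KO cells, against 48.4 to 51.9 TPM in control cells at 3 DPI. The range at 1 DPI was 52.5 to 68.9 TPM in KO cells, against 69.6 to 81.9 TPM in control cells. The others with positive values were Rxylt1, a glycosyltransferase that builds the sugar chain of dystroglycan (1.05 ± 0.26), Poc1b, a centriole protein with 22.5% of its transcript shared (1.21 ± 0.31), Serpinf1, a secreted serpin (0.88 ± 0.23), and Pip4p2, a phosphoinositide phosphatase (0.94 ± 0.25). Incenp and Fgf21, given above, completed the 8.

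The negative side held several genes of low level, though not Bcl3, which averaged 27.2 TPM in KO cells and 19.99 TPM in control cells at 1 DPI. KO 3 DPI libraries 2 and 3 had the fewest genes above 0 (14993 and 16023). Their part in the low values was not tested. Vps13c, a lipid transfer protein between endoplasmic reticulum and late endosomes, stood at 3.04, 1.68, 0.403 and 2.12 TPM in KO cells, against 7.36, 4.67 and 9.36 TPM in control cells at 3 DPI. The 1 DPI values were 9.19, 12.7, 5 and 7.81 TPM in KO cells, against 7.64, 7.05, 3.84 and 5.18 TPM in control cells. It fell in KO cells between the days by 1.82 (limma adjusted p = 0.000979), with a step of 0.22 in control cells and an interaction of -2.04 ± 0.51. Bcl3, a nuclear IkappaB protein that acts with NF-kappaB, fell in KO cells by 2.01 ± 0.29 (limma adjusted p = 6.56e-05), with a step of -0.38 ± 0.31 in control cells and an interaction of -1.63 ± 0.43. Ddit4l, an inhibitor of mTORC1, rose instead in control cells, by 2.37 ± 0.59 (limma adjusted p = 0.0109), with a step of -0.59 ± 0.55 in KO cells and an interaction of -2.96 ± 0.81. The others with negative values included Rasgrp2, an exchange factor for Rap1 (-2.64 ± 0.69), and Plekha7, an adherens junction protein (-1.74 ± 0.53). They also included Rabepk, a Rab9 effector (-0.98 ± 0.29), Ckb, given above, and Raet1d, a ligand of the NKG2D receptor that shares its whole transcript with Raet1e and is uncertain (-2.09 ± 0.61).

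**Figure D5:**
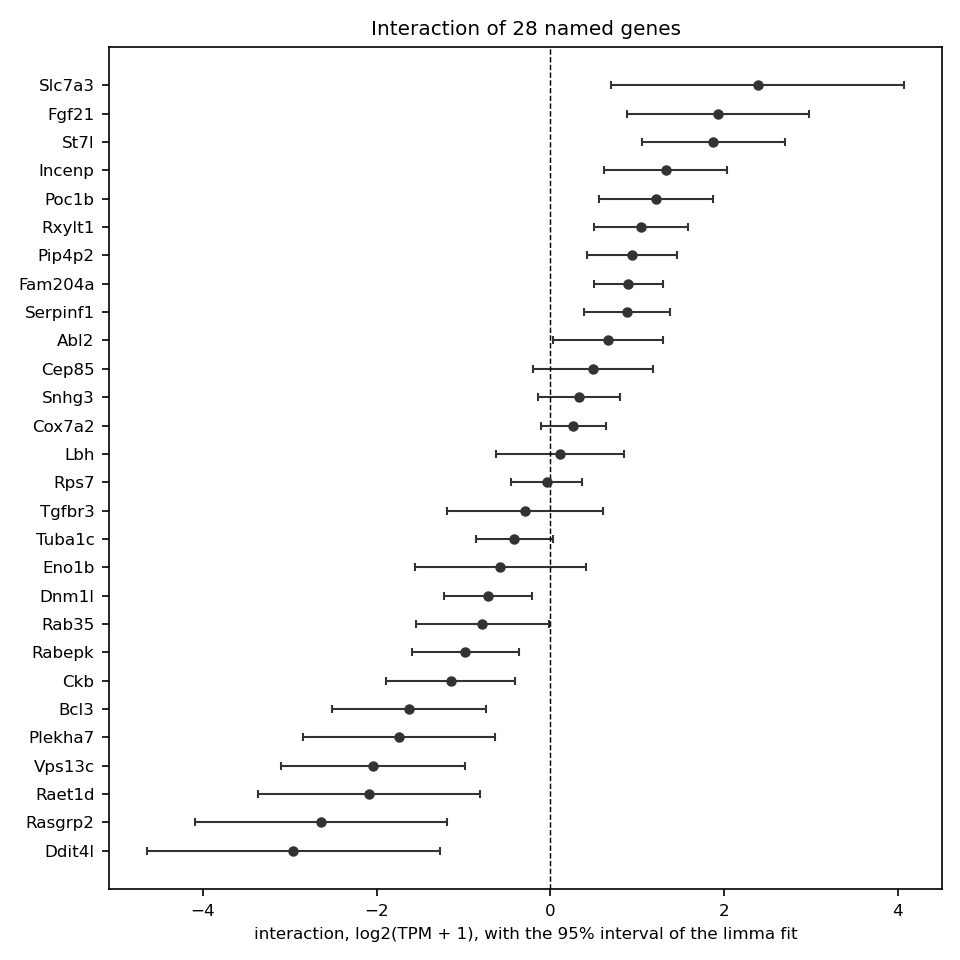
Interaction of 28 named genes on the x axis in log2(TPM + 1), with the 95% interval of the limma fit as bars, ordered by value from Ddit4l (-2.96) at the bottom to Slc7a3 (2.39) at the top. They comprise Dnm1l, the 8 genes of smallest unadjusted p in each direction and 13 genes chosen for an earlier call between genotypes; no interval is adjusted for the number of genes, and none of these genes was called.

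Of the 52 genes called at 3 DPI, 12 had an unadjusted interaction p under 0.05, and of the 51 called at 1 DPI, 5 had (4.53% of all genes). The genotype comparison of either day is a part of the interaction and shares its libraries. A gene called on either day therefore tends towards a small interaction p, and these counts are only a description. The 12 included Dnm1l, Fgf21, Slc7a3, St7l, Pip4p2, Abl2 and Rab35; chosen after its values were seen, Sys1, a Golgi trafficking protein, was called at 3 DPI with a difference of 0.96 ± 0.19 and had one of 0.02 ± 0.17 at 1 DPI. The 5 at 1 DPI, likewise named after their values were seen, were Slamf9, an immune receptor, the pseudogene Gm15197, the lincRNAs Gm17484 and Gm42745 and the scaRNA Gm23751, each at 0 in at least 3 libraries of one genotype on that day. Pip4p2 stood at 118, 139, 131 and 121 TPM in KO cells, against 59, 48 and 54.9 TPM in control cells at 3 DPI. At 1 DPI its values were 45.7, 32.1, 45.4 and 43.6 TPM in KO cells, against 34.4, 41, 29.1 and 31.4 TPM in control cells.

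Several genes chosen for an earlier call had a genotype difference on both days. Rps7, a ribosomal protein, differed by -0.75 at 3 DPI and -0.71 at 1 DPI, both called, with an interaction of -0.04 and a 95% interval of -0.45 to 0.37. Tgfbr3, the TGF-beta co-receptor betaglycan, differed by -1.75 at 3 DPI and -1.46 at 1 DPI, both called, with an interaction of -0.29 ± 0.43. Tuba1c, an alpha-tubulin, differed by -1.19 at 3 DPI and -0.78 at 1 DPI, both called, with an interaction of -0.41 ± 0.21. Eno1b, an enolase gene, differed by 1.73 at 3 DPI and 2.30 at 1 DPI, both called, and its KO 3 DPI library 3 stood at 226 TPM where the other 3 stood at 953 to 1020 TPM. Rps7, Tuba1c and Eno1b share 68.2%, 68.1% and 92.2% of their transcripts with other genes, in that order, and are uncertain. Lbh, Cep85, Cox7a2 and Snhg3, called lower at 1 DPI, had interactions of 0.11 ± 0.35, 0.49 ± 0.33, 0.27 ± 0.18 and 0.34 ± 0.23, in that order. Snhg3 shares 81.1% of its transcript and is uncertain. Rescaled over protein-coding genes, the 1 DPI call was lost for Lbh (limma adjusted p = 0.117) and Cox7a2 (limma adjusted p = 0.0581) and kept for Cep85 (limma adjusted p = 0.0111). All 4 were below control without overlap on both days (3.25% of all genes at 3 DPI and 1.19% at 1 DPI, each day taken alone). These genes were chosen for their 1 DPI call, so the lack of overlap on that day adds nothing to it. With values rescaled over protein-coding genes, Rps7, Tgfbr3 and Tuba1c were called at 3 DPI only, with limma adjusted p at 1 DPI of 0.0706 for Rps7, 0.0926 for Tgfbr3 and 0.0706 for Tuba1c. An interval that spans 0 does not show that a difference was equal on the days.

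A full crossing of the genotypes was rare. All KO libraries lay above all control libraries at 3 DPI and below them at 1 DPI for 2 of 18343 genes (0.0109%), Fam204a and Chd8, a chromatin remodeller, and the reverse held for 4 (0.0218%), Car7, Zfp747, the lincRNA Gm48799 and the unclassified transcript Gm37255, which were named for this pattern after their values were seen. Chd8 stood at 14.6 to 39.2 TPM in KO cells, against 9.18 to 14.4 TPM in control cells at 3 DPI, and at 12.1 to 17.4 TPM in KO cells, against 19.4 to 24.6 TPM in control cells at 1 DPI, with an interaction of 1.21 that was not called (unadjusted p of 0.00328). Car7, a carbonic anhydrase, Gm37255 and Gm48799 stayed under 4 TPM in every library.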

How the data were processed

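Bulk RNA of sorted mouse satellite cells was measured in 36 libraries, of which 15 entered the contrast; the table used holds 21 libraries in 6 groups. The authors deposited gene-level TPM, and per the submitters' processing notes RSEM 1.3.1 was run on GRCm38, cutadapt 1.7.1 and CASAVA 1.8.2 are listed too, and no aligner is. The labels' protocols name both a low-input and a directional library kit, so strand is open and reads of overlapping antisense genes cannot be separated. TPM keep no depth, so counting error is unknown, and the per-library scaling makes each value relative to the rest of its library. The other table of the series, of young and old cells, was not used here.

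GENCODE M21 gave the symbols and coordinates of 55230 of the 55471 gene identifiers, and 1113 of 1117 list entries matched. On the log2(TPM + 1) scale, a linear model of 6 group means was fitted to all 21 libraries with limma 3.58.1 (R 4.3.3), its variances shrunk towards a trend on the level; 18343 genes that reached 1 TPM in 3 or more libraries entered it. The 6 libraries of uninjured cells added only to the estimate of spread. Each contrast was tested two-sided, p-values were adjusted by Benjamini-Hochberg across all these genes, and 0.05 was the limit; the code was checked on simulated data. Fold changes are on the log2(TPM + 1) scale, which understates those of low genes. Lists were described by counts and medians, with no test. Named were Dnm1l, the 8 genes of smallest p in each direction, up to 4 members of each of the 8 lists farthest from the median of all genes, 5 markers and 13 genes called earlier between genotypes; not all are printed. The contrast, lists and genes were chosen with earlier results of these data known. Libraries with the same number did not pair: 3 of 15 correlated best with their own number, and 1 of 21 same-number pairs had a correlation over 0.1. The closest libraries were not identical (median log2 difference 0.288). Promoters came from RefSeq, and shared transcript sequence was found with BLAST 2.17.0 (stretches of 100 bases at 95% identity). Python 3.11.15 made the tables (pandas 2.3.3 on numpy 2.4.6), intervals (scipy 1.17.1) and figures (matplotlib 3.10.9). Alternatives changed the pseudocount, filter, scaling, variance model, groups fitted, replicate block and libraries.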

Additional observations from a re-analysis of the deposited data

Results flagged for a closer look

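In groups of 4 libraries, 215 sets of values of named genes and lists were looked at for a library far from the other 3, and 14 had one; chance gives about 1 in 20. KO 1 DPI library 2 gave 6 of the 14. In log2(TPM + 1), it was low for Cars, the cysteinyl-tRNA synthetase (6.21), Psph, a serine synthesis phosphatase (3.99), Pip4p2 (5.05), Fgf21 (0.0) and the aminoacyl-tRNA synthetase list (mean 6.36), and high for the interferon list (mean 4.73). The same library had the highest summed macrophage markers of the 15 (12220 TPM); their part was not tested.

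At 3 DPI, Eno1b was low in KO library 3 (7.83), Fgf21 (5.3) and Psat1 (8.27) were high in KO library 2, and Mx1 was above 0 in KO library 4 alone (0.126). The integrated stress response list was highest in KO library 4 (mean 4.55). At 1 DPI, Rps7 was low in KO library 1 (9.18), Rxylt1 was high in KO library 4 (5.6), and Rfc5 was high in control library 2 (6.87). All values are log2(TPM + 1).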

How the results depend on the processing

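Over 26 alternatives, 1593 of 1610 interaction values of 62 named genes kept their direction and call, 1 was newly called (Fgf21, 1.57 with a pseudocount of 5, which makes the count of called genes 1) and 16 turned sign, with values between -0.29 and 0.11 in the fit as reported. Of 1193 list medians, 1177 moved by less than 1 SD of the list between libraries. This limit is wide, and a median within it could still turn sign, which was not counted for lists. S phase genes went from 0.21 to -0.02 without KO 1 DPI replicate 2. Inflammatory cytokines went from 0.31 to -0.05 without KO 1 DPI replicate 3. The mitosis (0.38 to 0.71), integrated stress response (0.23 to 0.42) and interferon (-0.96 to -0.12) medians kept their sign. Leaving out 1 library gave 0 to 2 genes called for the interaction: Gm23451 and Gm47597 without KO 3 DPI replicate 1, Slamf9 without control 3 DPI replicate 1, Gm23751 without control 3 DPI replicate 3, Gm42745 without KO 1 DPI replicate 1 and Gm25180 without KO 1 DPI replicate 3. Rescaling over protein-coding genes, which also leaves other genes untested, gave 12 genes called between genotypes at 3 DPI and 4 at 1 DPI. Leaving out 1 library gave 1526 to 2946 genes in the control step. The lowest counts came without control 3 DPI replicate 2 (1526), 3 (1581) or 1 (1709), and the cause was not tested. Of 35 pathway lists, 7 lay over 0.2 from the median of all genes; leaving out 1 library gave 5 to 11, a pseudocount of 5 gave 4, and leaving out both KO libraries numbered 2 gave 11 (chosen after seeing the data). That last setting called 0 genes for the interaction, 55 at 3 DPI, 53 at 1 DPI, 2634 in the KO step and 3151 in the control step.

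Interactions that turned sign when 1 library was left out were those of Cdkn1a (-0.3205 to 0.08493, positive without KO 1 DPI replicate 2), Lbh (-0.01888 to 0.2368, negative without the same library), Myod1 (-0.3307 to 0.05464, positive without replicate 3 of either genotype at 1 DPI), Myog (-0.5032 to 0.1275, positive without KO 1 DPI replicate 1 or control 1 DPI replicate 2), Pax7 (-0.471 to 0.01037, positive without KO 3 DPI replicate 2) and Rps7 (-0.1801 to 0.04038, positive without KO 1 DPI replicates 2, 3 or 4 or control 1 DPI replicate 3). Leaving out both KO libraries numbered 2 gave 0.0848 for Cdkn1a, -0.01799 for Lbh and 0.02982 for Rps7, array weights gave 0.03905 for Rps7, and a pseudocount of 5 gave 0.284 for Tgfbr3. The cause was not tested. With the replicate number as a block (numbers did not pair the libraries), 0 genes were called for the interaction, 47 at 3 DPI, 43 at 1 DPI, 3286 in the KO step and 2355 in the control step. Median-of-ratios scaling moved the median of all genes to -0.04. The depth behind TPM is unknown, so no counting error was set beside low values.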
